A study of Drosophila melanogaster with 19 samples.

Results

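Obp57a and Obp57c are genes of the odorant-binding protein family of Drosophila melanogaster, and each is measured by 1 probe of the 32162 probes on the array. The probe of Obp57a (A_09_P056531, transcript FBtr0086294) is printed as 1 spot and the probe of Obp57c (A_09_P025696, transcript FBtr0086292) as 2 spots. The pair was chosen by its signal on the arrays of flies that over-express Pdm2-RB, where both probes had lost the level they had in control flies, so the values of those flies against control flies are a description here and carry no test. Both genes lie on chromosome arm 2R, where Obp57b is the single gene between them in the RefSeq annotation, with Obp57d and Obp57e farther along the arm. No probe was paired with Obp57b, Obp57d or Obp57e, which were not analysed here.

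Odorant-binding proteins are small, soluble, secreted proteins. In the lymph that surrounds the dendrites of smell and taste neurons they bind hydrophobic molecules, and several members of the family are also made in tissues with no chemosensory neurons. In the Obp57 cluster, Obp57d and Obp57e are known for their part in the taste response to plant fatty acids that differs between Drosophila sechellia and Drosophila melanogaster.

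The series holds 19 one-color arrays of dissected females at 10 days of age, kept as adults at 25 °C. Flies of c564>nub-RB carried UAS-nub-RB, the long isoform of the POU factor gene nub, and flies of c564>Pdm2-RB carried UAS-Pdm2-RB, from the neighbouring POU gene pdm2. Control flies (c564>+) carried the c564-Gal4 driver alone, which all flies shared and which is active in midgut and fat body among other tissues. Guts and the rest of the body (without gut and head, "rest") were profiled on 3 arrays for each genotype and tissue, except 4 for c564>nub-RB rest, each array from a pool of flies. The sample labels write the strain as w for the over-expressing flies and as w1118 for the control flies, and the driver of the control flies as c546. The series text writes w1118 and c564 for all genotypes. A difference of strain, or of the place where a transgene is inserted, cannot be told apart from the effect of the transgene in this design.

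The share of probes detected (called well above background by the scanner's software) ranged from 65.17% to 83.83% over the arrays, and no spot was saturated. Of 5 probes of nub, every c564>nub-RB array exceeded every c564>+ array for 3 in gut and for 4 in rest. In gut every c564>Pdm2-RB array also exceeded every c564>+ array for 3 of the 5, and in rest for 0 of the 5. The brightest nub probe was not among those counted for c564>nub-RB, as it overlapped with control (7580 to 11100 against 5610 to 10200 in gut). The 4 counted in rest were dim, at most 42 in c564>nub-RB, so these counts are a weak check of the over-expression. No probe was paired with pdm2, which was not analysed here. Of 18 digestive enzyme genes listed, 6 had a named probe. Their summed signal was 1327665 to 1642453 in gut, against 4194 to 383052 in rest, and rest of c564>+ flies held the most (224480 to 383052) of any genotype. Signals are given after quantile normalization, in arbitrary units, and levels of one probe were not set against those of the other.

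Obp57a was bright in control guts and lower in the guts of both over-expressing genotypes, where it ranged from undetected to 4470. Its signal was 3.07, 646 and 4470 in guts of c564>nub-RB (replicates 1, 3a and 4). In guts of c564>Pdm2-RB it was 6.65, 3.39 and 3.72 (replicates 1, 2 and 4). In guts of c564>+ it was 35600, 47470 and 52100 (replicates 1, 3 and 4). All arrays of both over-expressing genotypes lay below all control arrays, and no Pdm2-RB array was well above background. Of all probes tested in gut, 10.8% lay below control in this way for c564>nub-RB and 11.7% for c564>Pdm2-RB.

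In rest the order was the same and the control level was lower. Obp57a had signals of 4.4, 1508, 299 and 225 in rest of c564>nub-RB (replicates 1 to 4). Its signals were 4.01, 2.23 and 5.23 in rest of c564>Pdm2-RB (replicates 1, 2 and 4). They were 2593, 2554 and 3244 in rest of c564>+ (replicates 1, 3 and 4). Again no array of an over-expressing genotype reached a control array, and no Pdm2-RB array was well above background. In rest the share of all probes below control in this way was 17.3% for c564>nub-RB and 9.66% for c564>Pdm2-RB.

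Obp57c showed the same order of genotypes over a smaller range. In guts its signal was 22.5, 50.7 and 108 for c564>nub-RB, in the replicate order given above. It was 25.1, 28.3 and 24.2 for c564>Pdm2-RB, against 2990, 3820 and 4164 for c564>+. In the guts of c564>nub-RB, replicate 1 lay below all 3 Pdm2-RB arrays, and the other arrays lay above them.

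In rest the signal of Obp57c was 42, 701, 192 and 190 for c564>nub-RB. It was 29.7, 48 and 30.7 for c564>Pdm2-RB, against 1354, 1585 and 1360 for c564>+. The groups of over-expressing flies again did not overlap with the control group in either tissue, as for the shares of all probes given above. Unlike Obp57a, Obp57c was called well above background on all 19 arrays, the Pdm2-RB arrays included, so no floor was set for its Pdm2-RB signals. Its lowest signals were still dim, and the size of differences from them depends on the background method. Its 2 spots differed by 0.22 on the log2 scale in the median array and by at most 0.51.

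**Figure D1:**
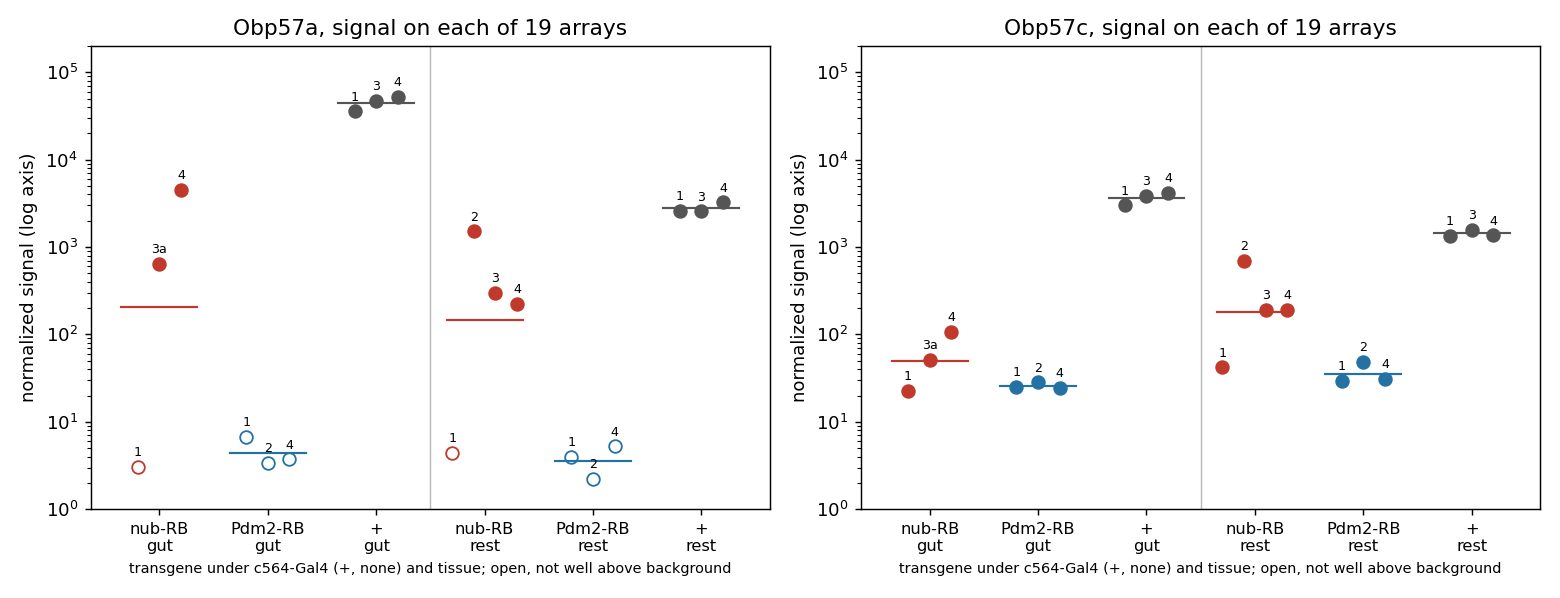
Normalized signal (log axis) of Obp57a (left panel) and Obp57c (right panel) on each of the 19 arrays, by transgene and tissue. Points are single arrays with their replicate number, open where the probe was not well above background, and horizontal lines are means of the log2 signals. The control arrays stand highest in both tissues, the Pdm2-RB arrays lie together at the bottom, and the nub-RB arrays spread between them with replicate 1 at the Pdm2-RB level.

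Set against control flies, the signal of Obp57a in c564>Pdm2-RB, taken at a floor, was 6240-fold lower in gut and 434-fold lower in rest. These values hold for the background subtraction of the scanner's software. They are not strict lower bounds, since the floor is not a limit of detection for this probe. With a normexp background correction, which adds an offset, the differences were -8.37 on the log2 scale in gut and -4.40 in rest. For the fold values, the mean control signal was divided by the floor. The floor is the dimmest signal still called detected on a Pdm2-RB array, averaged over the 3 arrays on the log2 scale. Obp57c, which was measured in both groups, differed by -7.13 on the log2 scale in gut (140-fold) and by -5.34 in rest (40.6-fold). Its size also depended on the background method, with -4.78 in gut and -3.38 in rest under normexp. Within groups the arrays were close together. The SD of the log2 signal of Obp57c was 0.12 in guts of c564>Pdm2-RB and 0.25 in guts of c564>+, and in rest it was 0.39 and 0.13 (n = 3 each). Among all probes tested, 11.7% in gut and 9.66% in rest had every Pdm2-RB array below every control array. Since this contrast chose the pair, nothing is read from the count. Within the first and the second batch of scanning, Obp57c differed by -7.36 and -6.81 in gut and by -5.17 and -5.58 in rest.

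The rule of choice names the Pdm2-RB arrays and not the nub-RB arrays, although the control arrays are the same in both comparisons. Both probes were also named through the study's tables, which compare c564>nub-RB with c564>+. The test of nub-RB is thus not wholly independent of the choice of the pair. In gut, Obp57c fell by 6.18 on the log2 scale in c564>nub-RB against c564>+ (SE 0.56, adjusted p = 0.00857 by limma, 3 arrays against 3), which corresponds to a 72.7-fold lower signal. With the normexp background correction the difference was -4.46 (adjusted p = 0.00141). Obp57c was above the threshold of 130 in the control group alone, so that it entered the test through the group where it is high, and with no threshold its adjusted p was 0.0177. Of 16698 probes tested in this comparison, 0.497% were called in either direction and 0.234% were called lower. The difference of Obp57a was -7.75 (SE 2.58, adjusted p = 0.201 by limma) and did not pass the threshold of 1%. One of the 3 nub-RB arrays did not measure Obp57a above background. The SD of its log2 signal was 5.44 in guts of c564>nub-RB and 0.29 in guts of c564>+, and the size of the difference rests on replicate 1. Without it the value was -4.71 (adjusted p = 0.0587), and with normexp it was -5.88 (adjusted p = 0.0833). Both probes were below every control array on every nub-RB array, as were 10.8% of all probes tested.

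The call of Obp57c in gut stood close to the threshold. It was lost with slide as a fixed block (-6.33, adjusted p = 0.237), and it held when nub-RB replicate 1 was left out (-5.61, adjusted p = 0.00902). In the other 5 fits that left out 1 array it did not hold, and the adjusted p lay between 0.0159 and 0.0486. The calls over all probes fell in these fits too. They went from 83 to 0 with the slide block, to 46 without nub-RB replicate 1 and to between 6 and 19 in the other 5 fits. One scan batch held arrays of both genotypes (3 against 2, all but c564>+ replicate 1). Within it the differences were -7.91 for Obp57a and -6.32 for Obp57c (adjusted p = 0.0433).

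Arrays of gut can hold RNA of other tissues, and 2 of 18 photoreceptor genes had a named probe (Arr1 and trpl). Their summed signal was 169 to 550 in guts of c564>nub-RB, 212 to 22711 in guts of c564>Pdm2-RB and 688 to 29540 in guts of c564>+. The array with 29540 was c564>+ replicate 1, which had the lowest signal of Obp57a and of Obp57c among the control guts. It is also the array outside the scan batch named above, so the values within that batch are those without it. The part of RNA from the eye in these values was not tested. Of the fat body list, 3 of 8 genes had a named probe. Their summed signal was 4457 to 6458 in guts of c564>nub-RB and 669 to 898 in guts of c564>+. Most of this sum was Cyp6a2, a cytochrome P450 gene (4388 to 5041 against 617 to 791). The other named genes, Lsp2 and Lsp1beta, code for larval serum proteins of the fat body. Lsp2 had 7.22 to 110 in guts of c564>nub-RB and 23.1 to 52.8 in guts of c564>+. Lsp1beta had 1627, 233 and 61.6 in guts of c564>nub-RB (replicates 1, 3a and 4), all above the 28.9 to 55 in guts of c564>+. Cyp6a2 was not higher in rest than in gut of control flies, and the part of fat body RNA was not tested. The 6 named digestive enzymes summed to 1368444 to 1570760 in guts of c564>nub-RB and to 1327665 to 1551865 in guts of c564>+, and none of them was called.

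In rest neither gene passed the threshold. The difference between c564>nub-RB and c564>+ was -4.26 for Obp57a (SE 1.76, adjusted p = 0.141) and -2.98 for Obp57c (SE 0.82, adjusted p = 0.055, limma, 4 arrays against 3). In this comparison 4.31% of 16491 probes were called in either direction and 0.91% were called lower. The SD of the log2 signal in rest of c564>nub-RB was 3.57 for Obp57a and 1.66 for Obp57c, against 0.19 and 0.13 in rest of c564>+. Without replicate 1 of c564>nub-RB the difference was -2.57 for Obp57a (adjusted p = 0.0544) and -2.28 for Obp57c (adjusted p = 0.0342), and without replicate 2 it was -5.38 (adjusted p = 0.0913) and -3.63 (adjusted p = 0.019). With normexp the values were -2.77 (adjusted p = 0.0475) and -2.23 (adjusted p = 0.0306). Every nub-RB array lay below every control array for both genes, as for 17.3% of all probes. For Obp57c the call depended on the model, since a fit with all 6 groups gave an adjusted p of 0.00713. Within the batches of scanning the difference of Obp57a was -1.11 (1 array against 1) and -5.27 (3 against 2), and that of Obp57c was -0.95 and -3.67. The smaller values come from the batch that held nub-RB replicate 2, the brightest nub-RB array of rest.

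**Figure D2:**
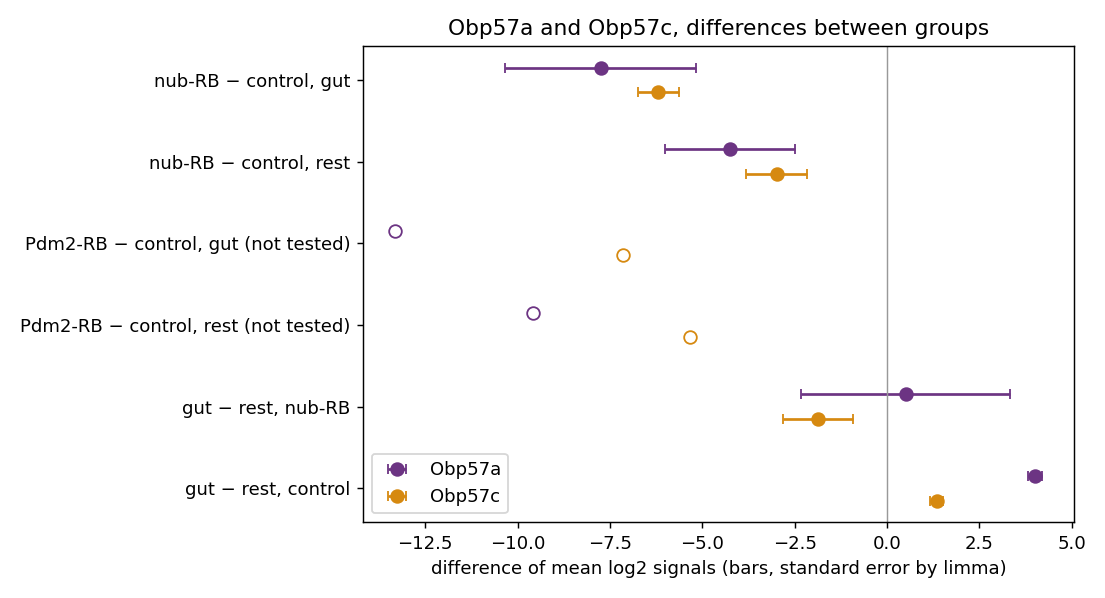
Differences of mean log2 signals for Obp57a (purple) and Obp57c (orange) between genotypes within a tissue and between tissues within a genotype. Filled points carry the standard error from limma, and open points are descriptions with no test. All differences from control lie below 0, the bars of Obp57a in nub-RB flies are the widest, and gut minus rest lies above 0 for both genes in control flies.

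For both genes the 7 nub-RB arrays differed among themselves more than the arrays of the other genotypes. On replicate 1 Obp57a was not well above background in either tissue. On the other 5 nub-RB arrays its signal was 225 to 4470. For the gap, the signal of replicate 1 was set to a floor, the dimmest signal still called detected on the same array. The lowest of the other arrays was 103-fold above this floor in gut and 18.0-fold above it in rest. For Obp57c, which was detected there, the corresponding gaps were 2.25-fold in gut and 4.54-fold in rest. The same gap was computed with the same floor for the 18119 probes that had a mean signal above 130 in at least 1 group. Obp57a was the single probe (0.00552%) at least 4-fold lower on replicate 1 than on every other nub-RB array of the same tissue in both tissues. This count was made after the values had been seen and carries no test. The sources used here do not say whether gut and rest samples that share a number were dissected from the same pool.

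The other arrays of c564>nub-RB lay between the 2 further genotypes. Obp57a on nub-RB gut replicate 4 (4470) and rest replicate 2 (1508) came nearest to the lowest control arrays, which had 35600 in gut and 2554 in rest. The 2 genes did not rank the nub-RB arrays in the same way across tissues. Obp57a was highest on gut replicate 4, while Obp57c was highest on rest replicate 2 (701) and had 108 on gut replicate 4. Over the 7 nub-RB arrays Pearson's r between the log2 signals was 0.68 and Spearman's rho was 0.61. Over all 19 arrays r was 0.92 and rho was 0.88. These correlations are descriptions, since the arrays share genotypes and the high control values set most of the range.

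**Figure D3:**
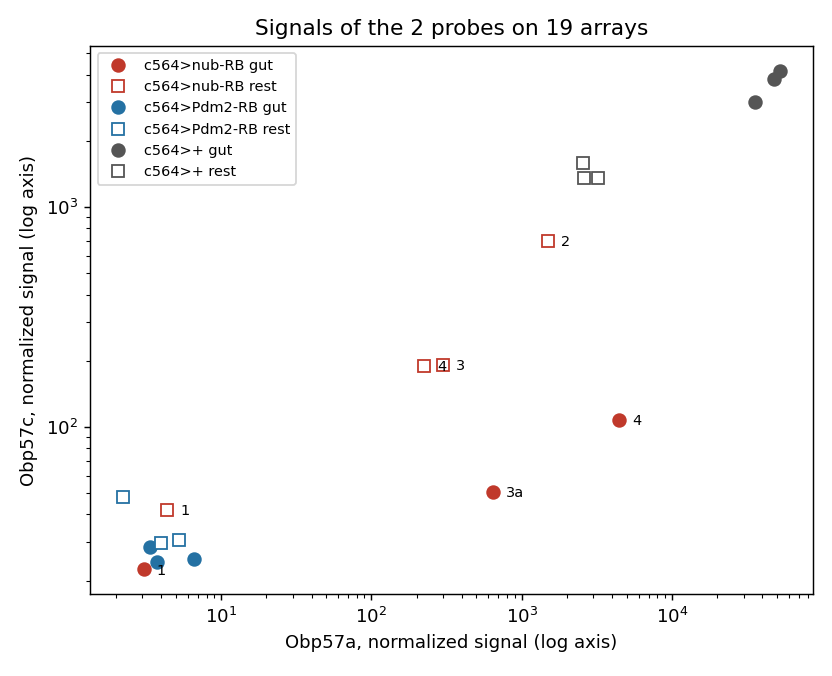
Signal of Obp57c (vertical, log axis) against that of Obp57a (horizontal, log axis) on the 19 arrays, with circles for gut, squares for rest, and replicate numbers beside the nub-RB arrays. Control arrays occupy the upper right, Pdm2-RB arrays and nub-RB replicate 1 of both tissues the lower left, and nub-RB gut arrays 3a and 4 have less Obp57c than nub-RB rest arrays 3 and 4, although their Obp57a is higher.

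In control flies both genes were higher in gut than in rest. The difference was 4.0 on the log2 scale for Obp57a (16-fold, SE 0.19, adjusted p = 4.06e-05) and 1.34 for Obp57c (2.54-fold, SE 0.17, adjusted p = 0.000711, limma, 3 arrays against 3). A difference between these tissues was common, as 59.4% of 17515 probes were called and 23.4% were called higher in gut. Every gut array lay above every rest array for both genes, as for 30.9% of all probes. Scaling to the 75th percentile moved the median of all probes by 0.32 in this comparison. With that scaling too, both genes were called higher in gut. In bulk tissue, fewer cells of a type and less RNA per cell cannot be told apart. Neither call held in a fit of all 6 groups with a shared spread (adjusted p = 0.0957 for Obp57a and 0.099 for Obp57c).

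In flies of c564>nub-RB the tissues did not differ beyond the spread of the arrays. Gut minus rest was 0.51 for Obp57a (SE 2.84, adjusted p = 0.879) and -1.86 for Obp57c (SE 0.95, adjusted p = 0.113), where 58.3% of 17371 probes were called. For Obp57a the direction was not settled, since leaving out single arrays gave values from -1.71 to 3.55. The effect of nub-RB was set against itself between tissues as an interaction. The effect in gut minus that in rest was -3.49 for Obp57a (SE 3.35, adjusted p = 0.537) and -3.20 for Obp57c (SE 1.13, adjusted p = 0.1), and 0.824% of 17952 probes were called. Single arrays moved these values, as leaving out each in turn gave -5.71 (without nub-RB gut replicate 4) to -0.45 (without nub-RB gut replicate 1) for Obp57a and -3.91 to -2.55 (without nub-RB rest replicates 1 and 2) for Obp57c. A larger effect in gut was therefore not shown for either gene.

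The arrays of rest also differed in their signal of gut genes. The 6 named digestive enzyme genes summed to 185635, 4194, 8354 and 213404 in rest of c564>nub-RB (replicates 1 to 4). They summed to 72066, 12309 and 25572 in rest of c564>Pdm2-RB, against 306056, 224480 and 383052 in rest of c564>+. LysP, a lysozyme gene of this list, was not gut-enriched here, with signals of 7514 to 11215 in rest of c564>+. Without LysP the remaining 5 summed to 184427, 2151, 6337 and 210786 in rest of c564>nub-RB and to 61527, 2284 and 2454 in rest of c564>Pdm2-RB, against 295959, 216965 and 371836 in rest of c564>+. The control arrays were the highest for the sum as they were for Obp57a and Obp57c. The median difference of the 6 enzyme genes from control rest was -3.87 on the log2 scale in c564>nub-RB and -4.96 in c564>Pdm2-RB. Of the 6, 1 was called lower in c564>nub-RB rest, where 0.91% of all probes were called lower. In c564>Pdm2-RB rest 0 were called, where 0.863% of all probes were called in either direction.

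Within rest of c564>nub-RB, replicate 2 had the lowest sum of digestive enzymes (4194) and the highest signal of both genes. Replicate 1 had a sum of 185635 and no detected Obp57a. Replicates 3 and 4 had sums of 8354 and 213404, with Obp57a at 299 and 225 and Obp57c at 192 and 190. A relation between the sum and the 2 genes was not tested. In rest of c564>+, the level of Obp57a was 6.25% of its level in gut and that of Obp57c 39.4%. The same share was 17.3% for alphaTry, a trypsin gene, and 3.36% and 2.02% for Jon25Bi and Jon99Ci, which code for serine proteases of the gut. For deltaTry, also a trypsin gene, the share was 44.5%, above that of Obp57c, and its probe was among the brightest of the control guts (505971 on all 3). For Jon99Fi the control arrays of rest were too far apart for a share (2873, 8.7 and 4072).

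Npc2e, which codes for a relative of the sterol-binding protein NPC2, had signals of 67072 to 102696 in guts of c564>+, against 773, 27 and 1598 in the rest of these flies. On replicate 3, where Npc2e had 27, Obp57a had 2554 and Obp57c had 1585. Most digestive enzymes were high on that array, with deltaTry at 176901, alphaTry at 29232, Jon25Bi at 8111 and Jon99Ci at 2713. Jon99Fi was low there, at 8.7. The part of gut RNA in the signals of rest was not tested.

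Other markers also differed in rest. All 5 named hemocyte genes of 7 listed were called higher in c564>nub-RB rest, where 3.4% of all probes were called higher. They summed to 32812 to 51120 there, against 4478 to 9401 in c564>+ rest. Gene names came largely from lists of genes changed in c564>nub-RB, so the named genes of a marker list are no sample of it. A share called among them cannot be set against that of all probes. Act88F, the flight muscle actin and the single named gene of 10 muscle genes, had 8822 to 43042 in c564>nub-RB rest and 626 to 3435 in c564>+ rest. The 3 named fat body genes summed to 2873 to 26336 in c564>nub-RB rest and to 421 to 839 in c564>+ rest, and 1 of them was called higher. The part of these in the lower values of Obp57a and Obp57c was not tested. None of the 9 listed neuronal genes and none of the 9 listed ovary genes had a named probe.

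**Figure D4:**
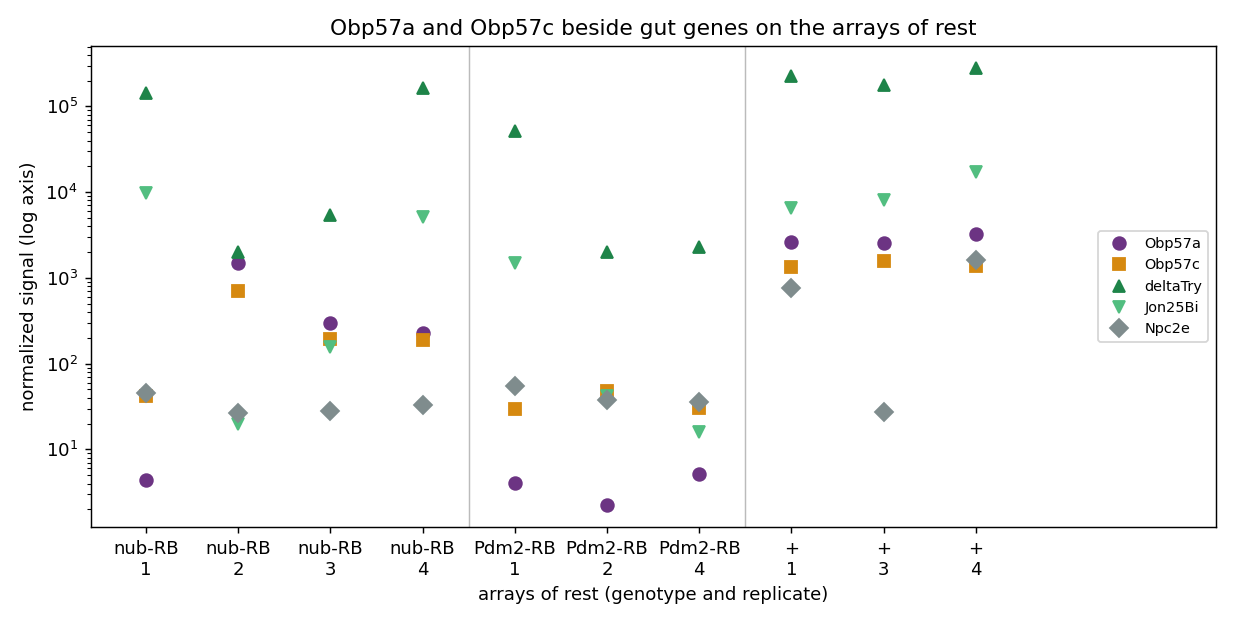
Normalized signal (log axis) of Obp57a, Obp57c and 3 gut genes (deltaTry, Jon25Bi and Npc2e) on the 10 arrays of rest, by genotype and replicate. Points of the same gene are to be compared along the axis. Obp57a and Obp57c were highest on the 3 control arrays at the right. On control replicate 3 Npc2e was at 27, deltaTry at 176901 and Jon25Bi at 8111.

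Of 52 odorant-binding protein genes listed, 6 had a named probe, and 4 of these are other genes. Names come largely from lists of changed genes, so these genes are no sample of the family. Obp50b stayed below the signal threshold in all groups, with signals of 1.62 to 6.72.

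Obp46a had a pattern unlike that of the pair. Its signal was 4.92, 4.89 and 4.04 in guts of c564>nub-RB (replicates 1, 3a and 4). It was 2441, 2036 and 2535 in guts of c564>Pdm2-RB (replicates 1, 2 and 4), against 1.67, 1055 and 682 in guts of c564>+ (replicates 1, 3 and 4). It was thus high on all 3 Pdm2-RB arrays, where Obp57a was not detected.

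In rest Obp46a had 1.61, 6.95, 3.98 and 8.32 for c564>nub-RB, 1053, 1158 and 1767 for c564>Pdm2-RB, and 8.57, 575 and 398 for c564>+. Replicate 1 of the control stood apart from the other control arrays in both tissues. On that replicate Obp57a had 35600 in gut and 2593 in rest, and the control arrays differed by at most 1.46-fold in gut and 1.27-fold in rest. The differences of Obp46a between c564>nub-RB and c564>+ were -4.53 in gut (adjusted p = 0.385) and -4.83 in rest (adjusted p = 0.0693), and those between c564>Pdm2-RB and c564>+ were 4.45 in gut (adjusted p = 0.426) and 3.37 in rest (adjusted p = 0.327). None passed the threshold in limma, which called 0.344% of all probes in gut and 0.863% in rest between c564>Pdm2-RB and c564>+.

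Obp99b rose in rest of nub-RB flies. Its signal was 941 to 1657 in rest of c564>nub-RB and 1134 to 2731 in rest of c564>Pdm2-RB, against 324 to 413 in rest of c564>+. The difference was 1.77 for c564>nub-RB (SE 0.20, adjusted p = 0.00272) and 2.46 for c564>Pdm2-RB (SE 0.34, adjusted p = 0.02), which missed the threshold. In gut the groups overlapped, with 90.4 to 425 for c564>nub-RB, 98.5 to 607 for c564>Pdm2-RB and 159 to 263 for c564>+. Obp99d had 295 to 1000 in rest of c564>nub-RB, 167 to 363 in rest of c564>Pdm2-RB and 205 to 260 in rest of c564>+. Its difference was 1.31 for c564>nub-RB (adjusted p = 0.0808) and 0.08 for c564>Pdm2-RB (adjusted p = 0.907). In gut Obp99d was not tested, since its signal there was at most 111.

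**Figure D5:**
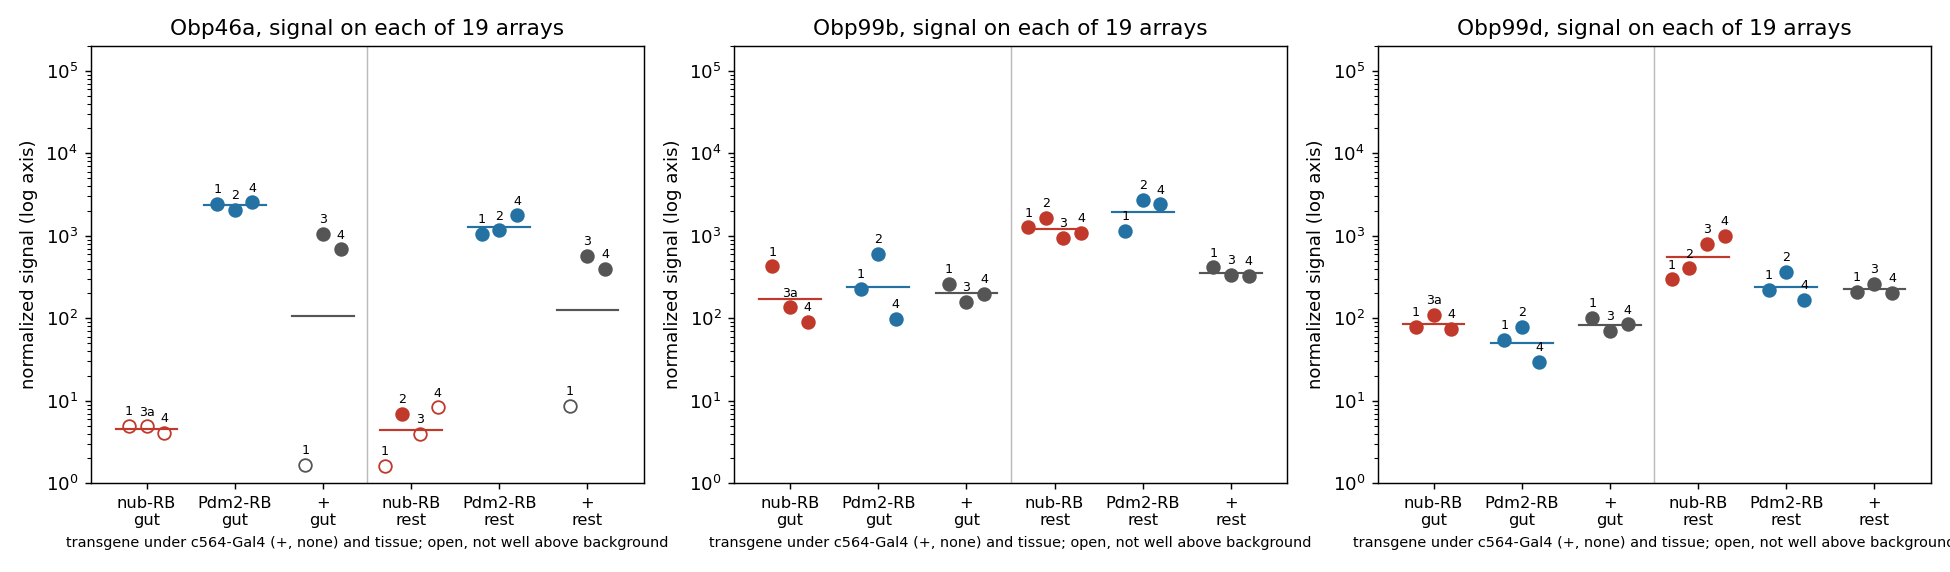
Normalized signal (log axis) of the other odorant-binding protein genes with a named probe above the signal threshold, Obp46a, Obp99b and Obp99d, on each of the 19 arrays, drawn as for Obp57a and Obp57c. Obp46a was high on all 6 Pdm2-RB arrays and on 4 of 6 control arrays, and Obp99b was higher in rest of both over-expressing genotypes than in control rest.

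Of 20 further chemosensory genes listed, 3 had a named probe and all of these were above the threshold. In rest of c564>nub-RB, 2 of the 3 were called higher and none lower, in a comparison with 3.4% of all probes called higher. Since names came largely from lists of genes changed in c564>nub-RB, these 2 shares cannot be set against each other. CheA75a, of a family related to the GM2 activator protein and known from taste organs, rose by 2.78 (SE 0.19, adjusted p = 0.000429), and NtR by 2.36 (SE 0.27, adjusted p = 0.00257). In rest of c564>Pdm2-RB CheA75a rose by 2.28 (SE 0.18, adjusted p = 0.00224). Npc2e differed by -1.98 in guts of c564>nub-RB (adjusted p = 0.185) and by -3.31 in rest (adjusted p = 0.122). No other gene of either list was called lower in either over-expressing genotype.

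Over the 19 arrays and among 18118 other probes, each of the 2 genes was the probe with the highest correlation to the other (r = 0.918, rho = 0.877). Both were chosen on part of these values, and the first place was not kept within genotypes, where Obp57c ranked 88 for Obp57a on the nub-RB arrays (r = 0.68), 18021 on the Pdm2-RB arrays (r = -0.72) and 2102 on the control arrays (r = 0.98). The next 4 probes for Obp57a had r between 0.801 and 0.832 and no gene name. Their signals spanned 0.42 to 3.44 on the log2 scale over the arrays, against 14.51 for Obp57a. The next probes for Obp57c were A_09_P220660 (r = 0.901), A_09_P038696 (r = 0.900) and A_09_P034341 (r = 0.896), without gene names, and Su(P) (r = 0.880). Su(P) had 2.44 to 3.3 in guts of c564>nub-RB and 2.92 to 3.96 in guts of c564>Pdm2-RB, against 5010 to 6012 in guts of c564>+. In rest it had 1.89 to 4.76 and 2.0 to 3.08 in the over-expressing genotypes, against 5634 to 6065 in c564>+. Like Obp57a and Obp57c it was highest on the control arrays, but no nub-RB array lay between the Pdm2-RB and the control level. All points in these correlations share their arrays and normalization, and the likeness to both genes rests largely on the control arrays being highest.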

How the data were processed

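Cy3-labelled RNA was hybridized to Agilent Drosophila arrays. The authors extracted intensities with Agilent Feature Extraction 10.7.3.1, which subtracts background within an array, and quantile-normalized them in Partek, and the deposited tables hold linear intensity values and spot flags (the flags as other values). Here, the deposited processed intensity of unmarked spots (46 to 87 marked per array) was averaged per probe, quantile-normalized over 19 arrays and put on the log2 scale in R 4.3.3, within 0.01 of the authors' normalized table for 99.92% of values. A probe was tested when a compared group's mean signal exceeded 130, with limma 3.58.1 on the compared arrays and Benjamini-Hochberg adjustment over all probes at 1%. The scripts were checked on simulated data. Figures were drawn with matplotlib 3.10.9.

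Probe names came from RefSeq accessions (317), the study's gene tables or a shared transcript identifier, 1399 in all. The array design gives build dm3, which is not that of the RefSeq table, so no coordinates are given, and no sequence is given. Members and lists were chosen with earlier results of these data known. Named are both members, listed odorant-binding protein and chemosensory genes above 130 in a group, the 5 probes most correlated with each member, and markers by list. Pools of flies are the replicates by the study's methods. No interval from counts applies to arrays, and precision is limited by their number. Alternatives covered scaling, background, filters, models, blocks, tests and leaving out each array.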

Additional observations from a re-analysis of the deposited data

Results flagged for a closer look

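NtR was noted because the effect of nub-RB differed between the tissues. The effect in gut minus that in rest was -2.87 on the log2 scale (SE 0.42, adjusted p = 0.00745, limma interaction). NtR had signals of 1079 to 2180 in guts of c564>nub-RB and 1892 to 2019 in guts of c564>+, against 3430 to 6526 in rest of c564>nub-RB and 754 to 1233 in rest of c564>+. The same test did not reach the threshold for Obp57a or Obp57c. No array of the group of 4 (c564>nub-RB rest) lay outside Dixon's limit for Obp57a, Obp57c or the other named genes of both lists.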

How the results depend on the processing

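Of 195 values of the tested differences of Obp57a and Obp57c under other settings, 192 kept their sign and 173 kept both sign and side of the threshold. In gut, the fall of Obp57c in c564>nub-RB (-6.18) was lost without the signal threshold (adjusted p = 0.0177), with slide as a fixed block (-6.33, 0.237) and in the methods' t-test with each probe's own spread (-6.18), and single arrays left out gave -6.74 to -5.61. Over all probes, samples that share a replicate number did not steadily deviate together (correlations of deviations -0.471 to 0.307). With the number as a replicate block, Obp57c in guts of c564>nub-RB was at -6.18 (adjusted p = 0.0748 by limma). It was the single call of these genes that the block changed, in a fit that called 0 of all probes. For gut minus rest in c564>nub-RB the block lowered the SE from 2.84 to 1.02 for Obp57a and from 0.95 to 0.28 for Obp57c. The model of all 6 groups called Obp57c in rest (-2.98) and lost the tissue difference of control flies for Obp57a (4.0) and Obp57c (1.34). The methods' t-test with a pooled spread added calls for Obp57a in gut (-7.75) and rest (-4.26), Obp57c in rest (-2.98), the tissue difference of Obp57c in nub-RB (-1.86) and both interactions (-3.49 and -3.20), and lost the tissue difference of Obp57c in control flies (1.34). The tissue difference of Obp57a in nub-RB changed sign without rest replicate 1 (-1.17), gut replicate 3a (-0.31) or gut replicate 4 (-1.71), within a range up to 3.55. For Pdm2-RB minus control, normexp gave -8.37 (Obp57a) and -4.78 (Obp57c) in gut and -4.40 and -3.38 in rest, and scaling to the 75th percentile gave -6.77 for Obp57c in gut and -10.24 and -5.76 in rest. The cause was not tested. Of the probes called in gut of c564>nub-RB, 44 of 83 were higher, and 31 of 81 with that scaling. For gut against rest in control flies it was 4093 of 10409, and 5339 of 10320. Scan date as a block was not run for guts of nub-RB or for the tissue difference in nub-RB, since all nub-RB guts were scanned in the same batch. Slide as a block for the tissue differences within a genotype could not be fitted. Of 19 arrays, 8 did not measure Obp57a above background.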
